A study of Mus musculus with 62 samples.

Results

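The genes described here are 36 activity-regulated immediate early genes, read in every library of a study of the mouse Ts65Dn model of Down syndrome and of the chromatin regulator Brwd1. All 36 were found among the 27179 gene rows of the count tables. The list was chosen by name from the classic neuronal immediate early genes and selected on the female hippocampal values, in which its classic members were lower in Ts65Dn and higher again in Ts65Dn/Brwd1+/-. The female comparisons are therefore given as descriptions without a test, and the male and embryonic comparisons, which the choice did not use, are tested.

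Bulk RNA-seq counts were available from 62 libraries. Of these, 47 came from the hippocampus of 6-week-old mice in 6 groups: male euploid (n = 8), male Ts65Dn (n = 7), male Ts65Dn/Brwd1+/- (n = 8), female euploid (n = 8), female Ts65Dn (n = 8) and female Ts65Dn/Brwd1+/- (n = 8). The other 15 came from E17.5 forebrain of euploid (n = 8) and Ts65Dn (n = 7) embryos, whose sex the labels do not give. Ts65Dn mice carry an extra chromosome with part of mouse chromosome 16 and the centromeric part of chromosome 17, and Ts65Dn/Brwd1+/- mice carry in addition a heterozygous Brwd1 mutation (the repro5 allele) in every cell, so that the number of functional Brwd1 copies is that of euploid mice. All groups were on a mixed DBA/2J x B6EiC3Sn/J background. The Ts65Dn/Brwd1+/- mice came from Ts65Dn females crossed to Brwd1+/- males, and which cross gave the embryos is not given in the sources used here. No group is stated to have received a stimulus. Whether the animals were handled or tested before collection is not given in the sources used here.

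Immediate early genes are transcribed within minutes of synaptic activity or growth factor signalling, from factors already present in the cell. Calcium and cyclic AMP act on them through CREB at cyclic AMP response elements (CREs), and the MAP kinase pathway acts through SRF and its ternary complex partners at CArG boxes. Some members encode transcription factors (the Fos, Jun, Egr and Nr4a families, Npas4) that switch on later genes, some encode synaptic effectors (Arc, Bdnf, Homer1, Nptx2), and others encode inhibitors of the same signals (the Dusp phosphatases). In hippocampal neurons their RNA is widely read as a trace of recent activity.

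The adult libraries held about 33600000 to 137100000 assigned reads and the embryonic ones about 14900000 to 62600000. Levels are given as log2 CPM, where CPM is the count scaled to the library size. Brwd1, the targeted gene, averaged 6.76 log2 CPM ± 0.11 (SD, n = 8) in male euploid, 7.28 ± 0.20 (n = 7) in male Ts65Dn and 7.03 ± 0.26 (n = 8) in male Ts65Dn/Brwd1+/- mice, and of 6.87 ± 0.28, 7.36 ± 0.11 and 7.09 ± 0.26 (n = 8 each) in the corresponding female groups. It stood at 7.52 ± 0.07 (n = 8) in euploid and 8.08 ± 0.11 (n = 7) in Ts65Dn embryos. In 4 adult libraries labelled trisomic (male Ts65Dn B145, male Ts65Dn/Brwd1+/- B138 and T35, female Ts65Dn/Brwd1+/- B136) the genes of the triplicated segments stood at the euploid level. In 2 others (male Ts65Dn B88, female euploid B85) the Y-linked gene Ddx3y, the only gene read for this check, went against the labelled sex. These 6 libraries were kept in the main fits and left out in a second set of fits given beside the results. The Brwd1 means above include them. In each of the 4 libraries at the euploid level Brwd1 was lower than in any other library of its group, which lowers those means. Without these 4, Brwd1 ran from 7.201 to 7.466 log2 CPM in male Ts65Dn mice. It then ran from 7.051 to 7.255 in male and from 6.793 to 7.281 in female Ts65Dn/Brwd1+/- mice. Markers of hippocampal neurons were present in every adult library, with summed levels of 12.76 to 13.39 log2 CPM for excitatory neurons, 8.74 to 9.35 for CA1 and 7.44 to 9.16 for dentate granule cells, and markers of the choroid plexus, which lies beside the hippocampus, ranged from 5.03 to 12.61. None of the 36 members lies in the triplicated segments.

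The promoters of the members were read first, because the group is defined by how it is switched on. RefSeq promoter windows (GRCm38.p6, 250 bases before to 50 after a transcription start) matched 30 of the 36 members. Egr1, Egr3, Arc, Ier2, Nptx2 and Trib1 were not matched. On either strand, a short CRE core (TGACG or its reverse complement CGTCA) was held by 21 of 30 members (70.0%) and by 6228 of all 27025 genes with a window. A full CRE (TGACGTCA, which holds both forms of the core) was held by 3 members (against 2.03% of genes), a CArG box by 3 (against 1.81%) and a site for the Egr factors (GCGNGGGCG or its reverse complement CGCCCNCGC) by 10 (33.3%, against 6.27%). The members' windows were also richer in G and C (median 64.7%, against 52.7%) and in CpG (median 23.8 per window, against 7.0), and the part of base composition in these shares was not tested. Fos itself, on chromosome 12, held 2 CRE cores and no full CRE or CArG box in its window. Bases more than 250 before the start were not read, so motifs farther upstream of Fos or any other member would be missed.

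Of the 12 members described in most detail, those with a full CRE or a CArG box were Egr2, Dusp1 and Btg2, and their windows are printed 5′ to 3′ on the strand of the gene, with these motifs in capitals, to show the sequences behind the counts. The Egr2 window (chr10:67537316-67537615, plus strand, 1 of several Egr2 starts) has a CArG box beginning 72 bases before the start. The Dusp1 window (chr17:26508423-26508722, minus strand) has a full CRE beginning 143 bases before the start, and the Btg2 window (chr1:134079106-134079405, minus strand) has 1 further upstream.
Egr2: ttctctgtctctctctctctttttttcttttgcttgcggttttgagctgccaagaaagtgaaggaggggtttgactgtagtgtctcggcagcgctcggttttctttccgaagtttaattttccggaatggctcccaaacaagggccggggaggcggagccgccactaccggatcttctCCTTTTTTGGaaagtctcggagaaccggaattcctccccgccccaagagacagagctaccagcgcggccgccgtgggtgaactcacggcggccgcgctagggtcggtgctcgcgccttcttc
Dusp1: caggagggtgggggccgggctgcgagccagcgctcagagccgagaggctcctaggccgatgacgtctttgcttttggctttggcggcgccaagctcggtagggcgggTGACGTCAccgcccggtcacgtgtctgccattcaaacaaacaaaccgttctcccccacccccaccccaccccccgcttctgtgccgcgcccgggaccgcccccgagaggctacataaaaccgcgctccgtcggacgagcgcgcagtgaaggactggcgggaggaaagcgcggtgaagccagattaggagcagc
Btg2: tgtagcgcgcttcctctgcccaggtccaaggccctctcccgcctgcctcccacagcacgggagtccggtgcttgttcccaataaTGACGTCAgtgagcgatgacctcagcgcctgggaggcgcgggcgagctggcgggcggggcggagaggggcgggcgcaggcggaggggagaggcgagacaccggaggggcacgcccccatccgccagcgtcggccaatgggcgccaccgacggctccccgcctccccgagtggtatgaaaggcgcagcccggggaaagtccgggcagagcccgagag

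Per kilobase of exon, the most abundant members in euploid male hippocampus were Arc (median 50.9 CPM per kb, range 23.9 to 72.0), Jun (47.9, 40.7 to 54.9), Egr1 (46.0, 25.69 to 55.98), Junb (36.6, 23.1 to 43.0), Srf (34.9, 31.5 to 38.9) and Nr4a1 (27.8, 16.03 to 31.2). The ranges of Arc, Jun and Egr1 overlapped, so their order is not resolved. Fos was far lower at 6.7 CPM per kb (2.68 to 11.1), Npas4, a neuron-specific factor that answers calcium influx, stood at 2.41 (0.816 to 6.3), Fosb at 1.8 (1.4 to 2.2), and Egr2 at 0.706 (0.154 to 1.27). The lowest 3 were Inhba (0.393), Atf3 (0.322) and Maff (0.32), whose ranges overlapped one another.

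In euploid E17.5 forebrain the most abundant members were Ier5 (27.8 CPM per kb, 24.5 to 39.2) and Srf (26.3, 24.1 to 28.1), whose ranges overlapped. The tables of adults and embryos were normalised separately, so levels set across them are descriptions. The samples also differ in both age and brain region, whose parts cannot be told apart, and the sex of the embryos is not given. For 19 members every euploid embryo lay below every euploid adult male, for 4 (Trib1, Pim1, Maff and Rgs2) every embryo lay above, and 13 overlapped. In embryonic forebrain Egr1 had a median of 2.73 CPM per kb (2.31 to 3.58), Arc of 1.72 (1.23 to 2.39), Junb of 2.78 (2.32 to 3.64) and Fos of 0.928 (0.673 to 1.9). Npas4 overlapped the adult range at 2.22 (1.15 to 3.27), as did Ier2 at 8.79 (7.45 to 14.6) and Dusp1 at 8.87 (7.56 to 9.85). Pim1, a serine/threonine kinase, stood at 3.47 (3.11 to 5.03) against 0.68 (0.327 to 0.941) in adult males. Fosb and Ptgs2 (median 0.0526 and 0.0276 CPM per kb) did not pass the filter on low counts in embryos, which leaves 34 members tested at that stage.

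Between animals of the same group the members varied more than other genes. The median within-group SD was 0.322 log2 CPM over the 36 members and 0.206 over all tested adult genes, and 17 of 36 members lay above the 90th percentile of genes of like level. Npas4 had an SD of 0.88, Egr2 of 0.85, Fos of 0.67, Arc of 0.51, Dusp1 of 0.46, Nr4a1 of 0.41 and Egr1 of 0.40 log2 CPM, which put all 7 above the 95th percentile. By contrast, Jun (SD 0.17), Homer1 (0.17), Rgs2 (0.17), Bdnf (0.17) and Srf (0.12) lay between the 43.2 and 72.0 percentiles. Counts were per gene, so different transcripts of a gene with several starts, such as Homer1 or Bdnf, were not told apart. In embryos the median SD was 0.311 over 34 members, against 0.211 over all tested genes, and 8 of the 34 lay above the 90th percentile.

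**Figure D1:**
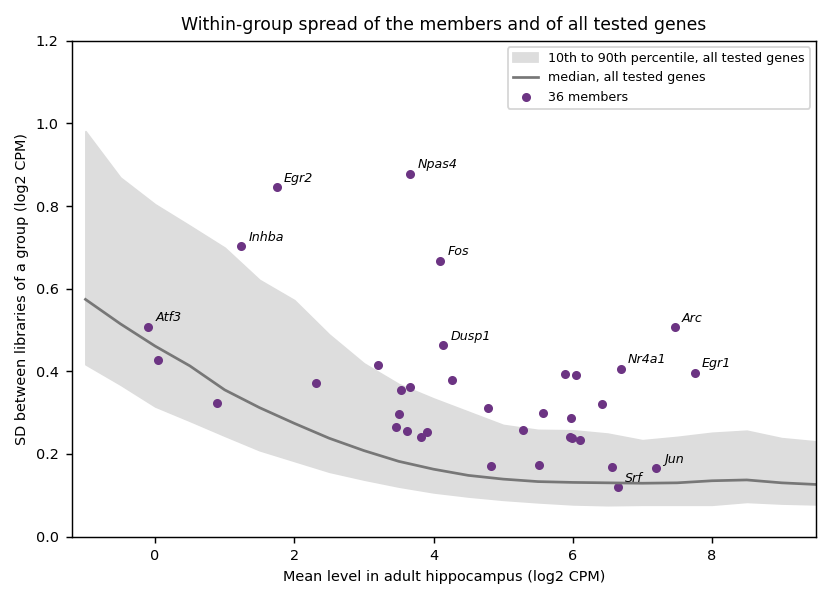
Within-group SD (log2 CPM, vertical axis) against mean level (log2 CPM, horizontal axis) of the 36 members in adult hippocampus (points), over the median (line) and the 10th to 90th percentile (band) of all tested genes of like level. Npas4, Egr2, Fos, Arc, Dusp1, Nr4a1 and Egr1 lie above the band, and Jun and Srf lie inside it.

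This spread was shared between members. After removal of the group means, Fos correlated positively with 22 of the 35 other members over the 47 adult libraries at an adjusted p under 0.05 (permutation within groups, two-sided, 100000 resamples, Benjamini-Hochberg over 35 relations), and with none negatively. By Spearman's rho 17 of 35 passed. The strongest relation was with Egr1, a zinc finger factor induced alongside Fos (r = 0.88, rho = 0.84), followed by Arc, which controls AMPA receptor endocytosis (r = 0.85, rho = 0.78), the MAP kinase phosphatase Dusp1 (r = 0.83, rho = 0.80), Junb, a partner of Fos in AP-1 (r = 0.83, rho = 0.76), Egr2 (r = 0.82, rho = 0.83) and Nr4a1, an orphan nuclear receptor (r = 0.82, rho = 0.75). Each of these 6 had an adjusted permutation p of 2.9e-05 for r, the smallest that 100000 resamples gave in this family. Without the 2 libraries farthest from the median of Fos (male Ts65Dn/Brwd1+/- B69 and B138), r was 0.84 with Egr1, 0.81 with Arc, 0.80 with Dusp1, 0.76 with Junb, 0.78 with Egr2 and 0.77 with Nr4a1. The members past the threshold then numbered 16 of 35, with a median r of 0.335, against 0.443 over all 47 libraries.

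The relation was seen in each sex and was not shared by all members. Within the 23 male libraries r with Fos was 0.91 for Egr1, 0.91 for Arc and 0.94 for Junb, and within the 24 female libraries 0.83, 0.73 and 0.53. The number of members past the threshold was 20 within males and 12 within females. These splits follow the labels and keep the libraries that went against them, B88 and B85 included. Over the 41 adult libraries without such conflicts r was 0.86 for Egr1, 0.83 for Arc and 0.79 for Junb. Gadd45b, a DNA demethylation factor, had r = 0.80 in males and -0.18 in females, and Egr4 had 0.83 and 0.25. Whether r differs between the sexes was not tested. At the other end were Jun (r = -0.13, adjusted permutation p = 0.534), Bdnf, the secreted neurotrophin (r = 0.01, 0.978), Srf (r = 0.03, 0.891), Homer1, a postsynaptic scaffold (r = 0.22, 0.194), Ptgs2, which encodes cyclooxygenase-2 (r = -0.06, 0.788), and Nptx2, a secreted synaptic pentraxin (r = -0.16, 0.391). For Bdnf and Homer1 these values join all transcripts of the gene.

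**Figure D2:**
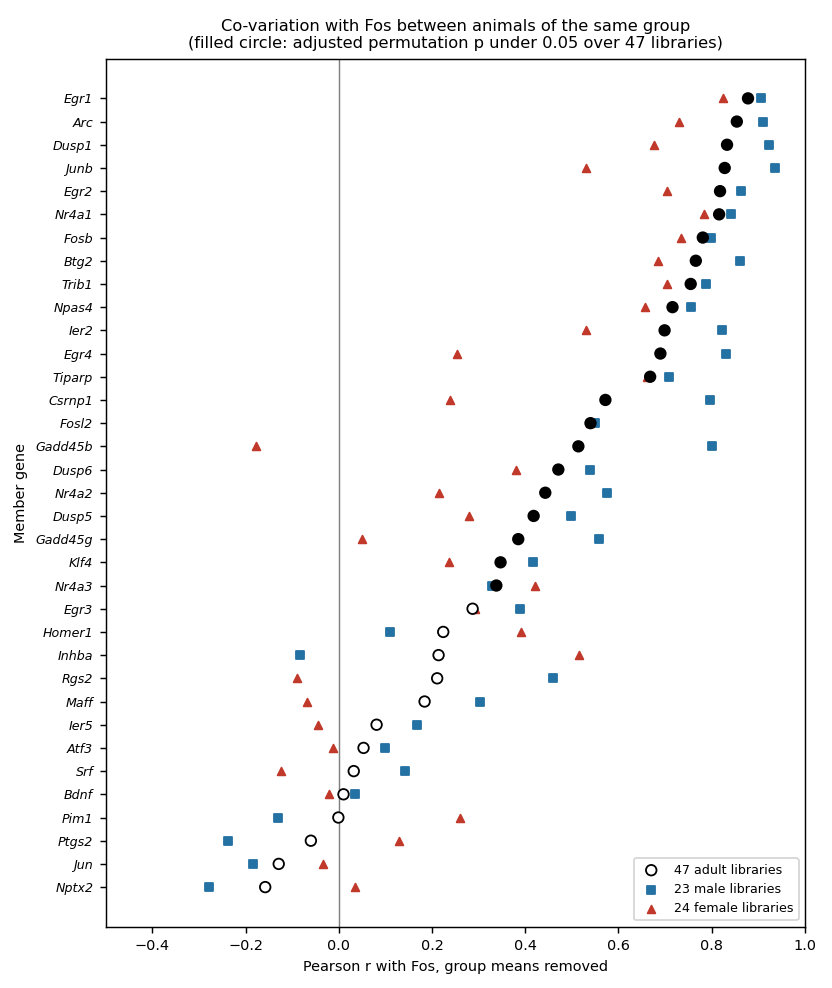
Pearson r of each of the 35 other members with Fos after removal of group means (horizontal axis, no unit) over all 47 adult libraries (circles, filled where the adjusted permutation p was under 0.05), 23 male (squares) and 24 female libraries (triangles). Egr1, Arc, Dusp1 and Junb stand at the top with r of 0.83 to 0.88, and Jun and Nptx2 at the bottom with r of -0.13 and -0.16.

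Of all 17426 other genes ranked by r with Fos, 13 of the first 20 were members, and the median r was -0.004 over all genes. The 10 genes outside the list with the highest r were Cdkn2aip (r = 0.70), Zfp418 (0.69), Tob2 (0.68), Arl4d (0.67), Ccn1 (0.66), Sik1 (0.66), Pard6b (0.66), Washc5 (0.65), Spty2d1 (0.65) and Eya3 (0.62), each over 47 libraries and given without a test. Ccn1 and Sik1 are themselves on the list of other rapid response genes. None of 20 other measures (marker sums, gene list sums, depth, triplicated dosage, Brwd1) passed the threshold in the same kind of test. The strongest was the summed level of interneuron markers (r = 0.35, rho = 0.28, adjusted permutation p = 0.248), and r was 0.12 for the log10 library total, -0.09 for choroid plexus markers, -0.004 for stress and heat shock genes, 0.10 for glucocorticoid-responsive genes and -0.08 for Brwd1.

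**Figure D3:**
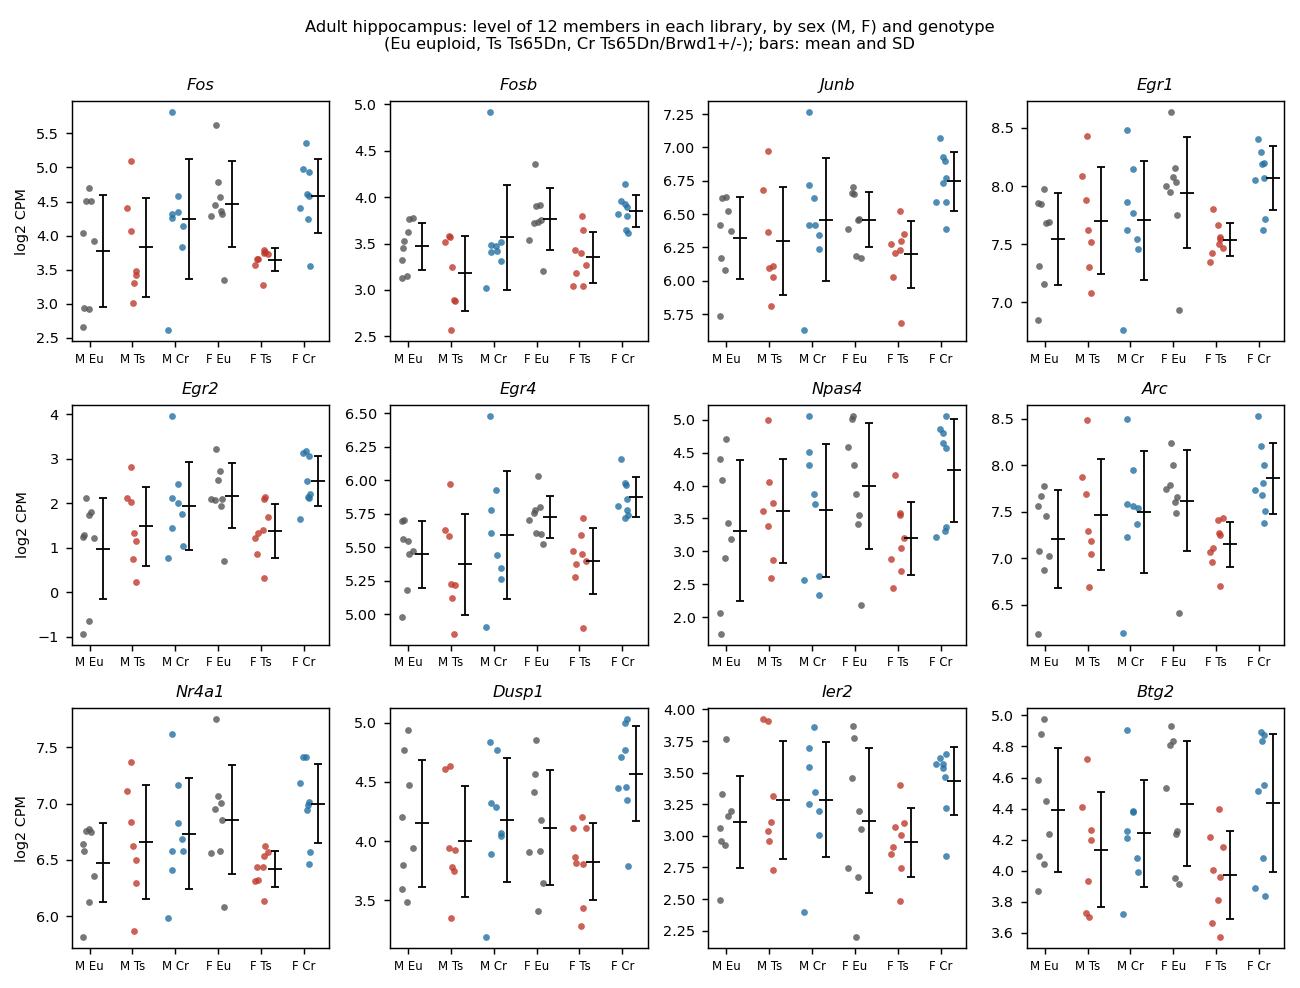
Level in log2 CPM (vertical axis) of 12 members in each adult hippocampal library (points) of male (M) and female (F) euploid (Eu), Ts65Dn (Ts) and Ts65Dn/Brwd1+/- (Cr) mice, with the mean and SD of each group (bars). Male groups overlap throughout, and female Ts65Dn libraries sit in a narrow band for Fos, between 3.28 and 3.79.

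In male hippocampus no member passed the threshold (edgeR quasi-likelihood test, adjusted p under 0.1) in any of the 3 genotype comparisons. In Ts65Dn vs. euploid males 0 of 36 members were called, against 0.795% of all 16851 genes, and 3 had an unadjusted p under 0.05, against 8.91%. 22 were higher and 14 lower, with a median log2 fold change of 0.03 (0.00 over all tested genes). In Ts65Dn/Brwd1+/- vs. Ts65Dn males 0 of 36 were called, against 0.0% of genes, 1 (Fosb) had an unadjusted p under 0.05, against 7.48%, and 24 were higher and 12 lower, with a median of 0.07. In Ts65Dn/Brwd1+/- vs. euploid males 0 of 36 were called, against 0.576% of genes, 2 (Egr2 and Pim1) had an unadjusted p under 0.05, against 10.1%, and the median was 0.16, or 0.02 without the libraries against their labels and 0.04 without B138 alone. DESeq2 called no member in these comparisons either. The comparisons share libraries and are not independent of one another.

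Fos stood between 2.66 and 4.70 log2 CPM in euploid males (median 3.98), between 3.02 and 5.09 in Ts65Dn males (median 3.49) and between 2.62 and 5.81 in Ts65Dn/Brwd1+/- males (median 4.29). Both the lowest and the highest male values came from Ts65Dn/Brwd1+/- mice, and the groups overlapped over most of their range. The fitted log2 fold change of Fos was 0.03 ± 0.41 (SE; adjusted p = 0.99, edgeR) for Ts65Dn vs. euploid males and 0.47 ± 0.41 (adjusted p = 0.833) in Ts65Dn/Brwd1+/- vs. Ts65Dn males. Without the 4 male libraries that went against their labels the latter was -0.08 ± 0.44, and the median over the members turned from 0.07 to -0.07. Library B138, 1 of these 4, was the highest of its group for 24 of 36 members, and B69 the lowest for 21.

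The other AP-1 genes did not separate the male genotypes. Fosb, whose truncated product accumulates with repeated activity, had medians of 3.49, 3.25 and 3.45 log2 CPM in euploid, Ts65Dn and Ts65Dn/Brwd1+/- males, and library B138 at 4.92 lay above all others of its group, which reached 3.52. Its difference in Ts65Dn/Brwd1+/- vs. Ts65Dn was 0.47 ± 0.22 (adjusted p = 0.664, edgeR), and 0.04 ± 0.16 without the libraries against their labels. Junb had medians of 6.39, 6.11 and 6.42, with all differences at or under 0.17 in size. Fosl2 differed by at most 0.27 ± 0.15 (adjusted p = 0.698, edgeR), and Jun by at most 0.02 in size.

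Among the Egr factors, Egr2 showed the largest difference of any member in males. It ranged from -0.94 to 2.12 log2 CPM in euploid, 0.22 to 2.81 in Ts65Dn and 0.77 to 3.97 in Ts65Dn/Brwd1+/- males, and the last of these differed from euploid by 1.01 ± 0.47 (adjusted p = 0.479, edgeR), or by 0.51 ± 0.41 without the libraries against their labels. Egr1 had medians of 7.69, 7.62 and 7.69 log2 CPM and differences of at most 0.19 ± 0.22. Egr4 had medians of 5.51, 5.22 and 5.52, and Egr3 of 5.98, 6.10 and 5.96. The groups overlapped for all of them.

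Npas4 had medians of 3.31, 3.61 and 3.80 log2 CPM in euploid, Ts65Dn and Ts65Dn/Brwd1+/- males, with ranges of 1.75 to 4.70, 2.60 to 4.99 and 2.35 to 5.06. Arc had medians of 7.27, 7.30 and 7.55 and ranges of 6.19 to 7.78, 6.69 to 8.49 and 6.20 to 8.50. Nr4a1 had medians of 6.61, 6.62 and 6.63. These levels differed by less than the spread between animals, with adjusted p of 0.951, 0.842 and 0.849 (edgeR) for Ts65Dn vs. euploid. Dusp1 (medians 4.07, 3.93 and 4.18), Ier2, an early response nuclear protein (3.11, 3.11 and 3.30), and the antiproliferative factor Btg2 (4.34, 4.20 and 4.23) behaved likewise, with adjusted p of 0.902, 0.86 and 0.742 for the same comparison.

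The remaining members stayed near the euploid level in males. In Ts65Dn vs. euploid the 3 with an unadjusted p under 0.05 were Atf3, a stress-induced factor, at 0.55 ± 0.25 (adjusted p = 0.533, edgeR), Nptx2 at 0.28 ± 0.13 (adjusted p = 0.536) and Gadd45g, a paralogue of Gadd45b, at -0.29 ± 0.13 (adjusted p = 0.512). In Ts65Dn/Brwd1+/- vs. euploid males Pim1 stood at -0.38 ± 0.17 (adjusted p = 0.47, edgeR). Nr4a2, Nr4a3, Dusp5, Dusp6, Ier5, Klf4, Bdnf, Homer1, Ptgs2, Gadd45b, Trib1, Inhba, Csrnp1, Maff, Tiparp, Rgs2 and Srf lay between -0.37 (Inhba, Ts65Dn/Brwd1+/- vs. Ts65Dn) and 0.33 (Dusp5, Ts65Dn/Brwd1+/- vs. euploid) in all 3 comparisons.

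**Figure D4:**
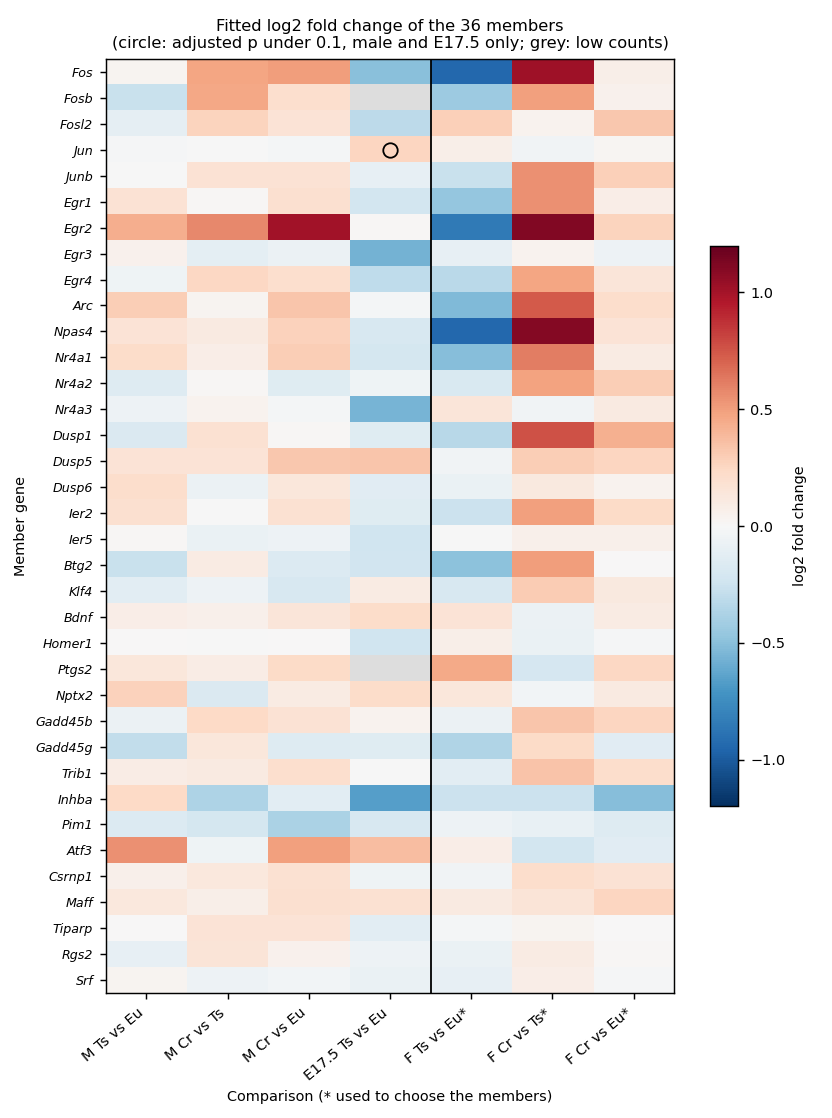
Fitted log2 fold change (colour scale) of the 36 members (rows) in 7 comparisons (columns) of male (M), E17.5 and female (F) euploid (Eu), Ts65Dn (Ts) and Ts65Dn/Brwd1+/- (Cr) libraries, with the female columns, which were used to choose the members, at the right. Circles mark an adjusted p under 0.1 in the tested male and E17.5 columns, where Jun at E17.5 with 0.26 is the only one, and the female columns carry no test.

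In female hippocampus, whose values chose the list, Fos stood between 3.35 and 5.62 log2 CPM in euploid (median 4.41), between 3.28 and 3.79 in Ts65Dn (median 3.70) and between 3.55 and 5.36 in Ts65Dn/Brwd1+/- mice (median 4.596). Of the 8 Ts65Dn libraries none exceeded the euploid median, but the groups overlapped because euploid library B125 was as low as the Ts65Dn libraries. The fitted log2 fold change was -0.94 ± 0.23 (SE) for Ts65Dn against euploid, then 1.01 ± 0.23 for Ts65Dn/Brwd1+/- against Ts65Dn. Without the 2 female libraries against their labels (euploid B85, the highest of its group for 17 members, and Ts65Dn/Brwd1+/- B136) these became -0.70 ± 0.18 and 0.88 ± 0.18.

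Over the list, 27 of 36 members were lower in Ts65Dn vs. euploid females, where 54.3% of all 17146 genes were lower, with a median log2 fold change of -0.10 (-0.02 over all genes). Beside Fos, the differences included -0.53 ± 0.18 for Arc, -0.51 ± 0.17 for Nr4a1, -0.49 ± 0.18 for Btg2 and -0.47 ± 0.15 for Egr1. Fosb stood at -0.44 ± 0.13, Gadd45g at -0.36 ± 0.10 and Egr4 at -0.33 ± 0.09, and 9 of the 36 members were higher. In Ts65Dn/Brwd1+/- vs. Ts65Dn females 27 of 36 were higher, where 51.5% of genes were, with a median of 0.22. In Ts65Dn/Brwd1+/- vs. euploid females 29 of 36 were higher, with a median of 0.10. The list was chosen on these contrasts, so nothing is read from these counts. Euploid library B125 was the lowest of its group for 23 members, and without it the median for Ts65Dn vs. euploid was -0.16.

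The female differences were largest for Npas4 (-0.95 ± 0.35 against euploid, then 1.11 ± 0.35 from Ts65Dn to Ts65Dn/Brwd1+/-), Fos and Egr2 (-0.85 ± 0.29 and 1.11 ± 0.30). Npas4 had medians of 4.09, 3.13 and 4.61 log2 CPM in euploid, Ts65Dn and Ts65Dn/Brwd1+/- females and ranges of 2.19 to 5.05, 2.45 to 4.16 and 3.22 to 5.06. Egr2 had medians of 2.09, 1.36 and 2.36, and Arc of 7.70, 7.18 and 7.77. The groups overlapped for each of these genes.

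Egr1 had medians of 8.01, 7.52 and 8.13 log2 CPM in euploid, Ts65Dn and Ts65Dn/Brwd1+/- females, and Nr4a1 of 6.90, 6.44 and 7.004. Junb was 0.55 ± 0.11 higher in Ts65Dn/Brwd1+/- vs. Ts65Dn, and Dusp1 0.76 ± 0.19, with medians of 4.05, 3.84 and 4.58. Ier2 (3.12, 2.96 and 3.55), Btg2 (4.39, 3.98 and 4.53), Egr4 (5.73, 5.42 and 5.84) and Fosb (3.75, 3.33 and 3.86) had the same order of medians.

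Some members moved the other way from euploid to Ts65Dn females. Ptgs2 was higher in Ts65Dn than in euploid females by 0.45 ± 0.17 and Fosl2 by 0.28 ± 0.12, Bdnf by 0.17 ± 0.09 and Nr4a3 by 0.15 ± 0.19. Nr4a2 (medians 6.02, 5.79 and 6.35) and Trib1 (3.54, 3.41 and 3.69) had the order of Fos. Jun, Homer1, Srf, Tiparp, Rgs2, Ier5, Dusp6 and Egr3 differed by at most 0.12 in size in either step. Female Ts65Dn libraries were also the least spread, with a median member SD of 0.244 log2 CPM against 0.272 to 0.374 in the other adult groups.

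For no member did the adult groups separate fully in any of the 6 comparisons. The share of all genes without overlap was 0.172% in Ts65Dn vs. euploid, 0.0516% in Ts65Dn/Brwd1+/- vs. Ts65Dn and 0.121% in Ts65Dn/Brwd1+/- vs. euploid males, and 0.522%, 0.0287% and 0.109% in the same comparisons of females.

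In E17.5 forebrain 1 of 34 tested members was called, against 1.35% of 16395 genes. It was Jun, the main partner of the Fos proteins in AP-1, which was higher in Ts65Dn by 0.26 ± 0.05 (log2 fold change ± SE; adjusted p = 0.0172, edgeR). Jun stood between 5.58 and 5.91 log2 CPM in the 8 euploid embryos (median 5.74) and between 5.92 and 6.08 in the 7 Ts65Dn embryos (median 6.01), so that the groups just failed to overlap, as they did for 0.518% of genes and for no other member. Jun was called in every fit that left out 1 embryo, with the set as a covariate (adjusted p = 0.0232) and with DESeq2 (5.64e-05).

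The sample titles carry 1 of 2 numbers whose meaning the sources used here do not give, and the embryos were also read in the 2 sets so marked, set A (4 euploid and 3 Ts65Dn) and set B (4 and 4). Within set A, Jun averaged 5.72 ± 0.14 log2 CPM (SD) in the euploid and 6.05 ± 0.03 in the Ts65Dn embryos, and within set B 5.77 ± 0.05 and 5.98 ± 0.06. The difference was thus positive in both sets, but with these few embryos it was not called in either alone (adjusted p = 0.492 and 0.321, edgeR). Some markers of other cell types also moved at this stage. Of 6 excitatory neuron markers 6 were lower (median -0.30) and of 6 neural progenitor markers 5 were lower (median -0.23), with none called, and 6 of 6 choroid plexus markers were higher (median 0.48), with 3 at an unadjusted p under 0.05 and none called. The choroid plexus markers Clic6 (1.18 ± 0.32, the smallest p of the 6) and Kcne2 lie in the triplicated segments. The part of their extra copies was not tested. Of 6 astrocyte markers 4 were higher and 1 (Gja1) was called, and of 6 endothelial markers 5 were higher and 1 (Cdh5) was called. The summed excitatory neuron level was 9.16 to 10.65 log2 CPM in euploid and 7.84 to 10.27 in Ts65Dn embryos, and the neural progenitor level 8.53 to 9.20 and 8.01 to 8.88. The summed astrocyte level was 8.52 to 9.23 log2 CPM in euploid and 8.93 to 9.19 in Ts65Dn embryos, the endothelial 6.85 to 7.26 and 7.02 to 7.45, the choroid plexus 4.79 to 10.47 and 9.38 to 10.55, and the part of these markers in the Jun result and in the lower levels of other members was not tested. In bulk samples a change in the share of a cell type and a change of RNA per cell cannot be told apart.

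Most of the other members had a negative log2 fold change, and none of them was called in the main fit. Of the 34 tested, Jun included, 25 were lower in Ts65Dn embryos, where 53.7% of genes were, with a median log2 fold change of -0.13 (-0.01 over all genes). 4 had an unadjusted p under 0.05 in either direction, against 12.1% of genes, and besides Jun these were Nr4a3, an orphan nuclear receptor, at -0.56 ± 0.19 (adjusted p = 0.247, edgeR), Fos at -0.50 ± 0.23 (adjusted p = 0.395) and Btg2 at -0.23 ± 0.11 (adjusted p = 0.401). Fos ranged from 0.66 to 2.16 log2 CPM in euploid (median 1.10) and from 0.40 to 1.19 in Ts65Dn embryos (median 0.71). Within set A its means were 1.44 ± 0.55 (SD, n = 4) and 0.79 ± 0.37 (n = 3), and within set B 0.95 ± 0.40 and 0.71 ± 0.28 (n = 4 each).

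Egr1 had medians of 3.61 log2 CPM in euploid and 3.35 in Ts65Dn embryos (log2 fold change -0.22 ± 0.12, adjusted p = 0.458, edgeR), Nr4a1 of 4.21 and 4.05, Junb of 2.68 and 2.53, Dusp1 of 4.88 and 4.71, Ier2 of 3.74 and 3.82, Arc of 2.39 and 2.28 and Npas4 of 3.19 and 2.90. The groups overlapped for all 7. Egr2 and Egr4 were too low for a stable estimate, with log2 fold changes of 0.01 ± 0.34 and -0.31 ± 0.55. Inhba, a subunit of activin, stood at -0.66 ± 0.34, Egr3 at -0.57 ± 0.31, Atf3 at 0.37 ± 0.34 and Dusp5 at 0.33 ± 0.23, and the rest lay between -0.31 (Fosl2) and 0.22 (Bdnf and Nptx2). With 3 estimated factors of unwanted variation in the fit, 7 members were called in edgeR, 6 of them lower (Nr4a1, Nr4a3, Ier5, Btg2, Homer1 and Inhba), while the calls over all genes rose from 221 to 3621.

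In the embryos Fos did not show the co-variation seen in adults at this number of libraries. None of 33 members passed the threshold over the 15 libraries (median r = 0.19). Arc had the highest r (0.68, adjusted permutation p = 0.207), and r with Egr1 was 0.59, falling to 0.35 without the 2 embryos farthest from the median of Fos.

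**Figure D5:**
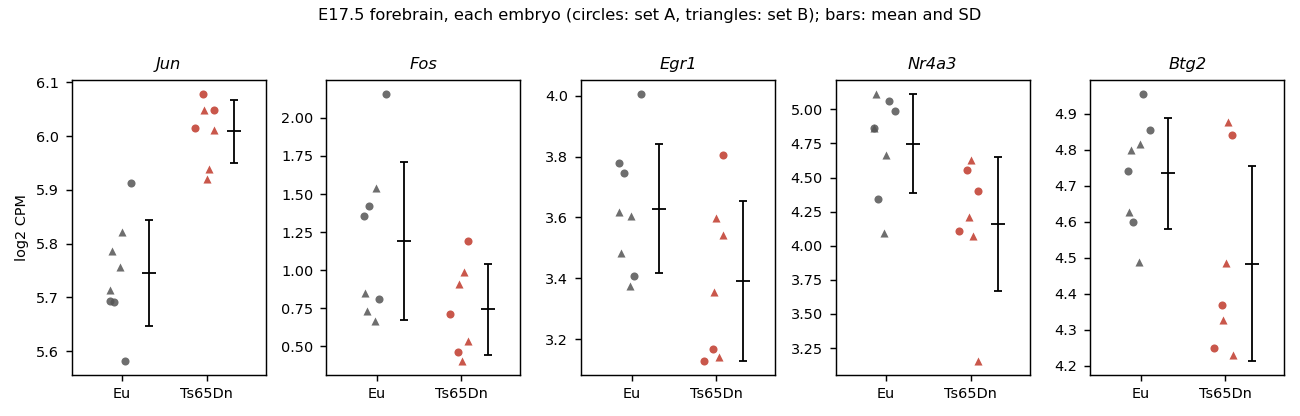
Level in log2 CPM (vertical axis) of 5 members in each E17.5 forebrain library of euploid (Eu) and Ts65Dn embryos, with circles for set A and triangles for set B of the title numbers, and the mean and SD of each group (bars). All Ts65Dn embryos lie at or above 5.92 for Jun and all euploid embryos at or below 5.91, and the groups overlap for Fos, Egr1, Nr4a3 and Btg2.

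Genes around the members were read from further lists. Of 29 tested other rapid response genes, 0 were called in any male comparison or at E17.5, and the smallest adjusted p (edgeR) was 0.404 for Crem, which encodes a CREB-related repressor, in Ts65Dn vs. euploid males (-0.18 ± 0.07), 0.634 for Dusp4 in Ts65Dn/Brwd1+/- vs. Ts65Dn, 0.372 for Crem in Ts65Dn/Brwd1+/- vs. euploid and 0.211 for Ier3 at E17.5. At an unadjusted p under 0.05 these comparisons gave 1, 2, 2 and 4 of the 29, against 8.91%, 7.48%, 10.1% and 12.1% of all genes. In females the clock gene Per1, which is also induced by CREB, stood at -0.42 ± 0.10 in Ts65Dn vs. euploid, and Ccn1, a matricellular protein, at 0.82 ± 0.18 in Ts65Dn/Brwd1+/- vs. Ts65Dn, both as descriptions.

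Of 33 upstream regulators, 0 were called in males by edgeR, and 1, 10 and 5 had an unadjusted p under 0.05 in the 3 comparisons, against 8.91%, 7.48% and 10.1% of all genes. In Ts65Dn/Brwd1+/- vs. Ts65Dn males 29 of the 33 were lower, where 52.2% of genes were, with a median of -0.12, and the SRF partner Elk1 had the smallest p (-0.26 ± 0.08, not called). In the same comparison 6 of 6 excitatory neuron markers (median -0.20) and 6 of 6 dentate granule markers (median -0.30, 3 at an unadjusted p under 0.05) were lower and none was called, with summed levels of 12.99 to 13.38 and 7.91 to 9.16 log2 CPM in Ts65Dn against 12.77 to 13.17 and 7.62 to 8.43 in Ts65Dn/Brwd1+/- males, and their part was not tested. Rps6ka2, a ribosomal S6 kinase encoded in the triplicated segments, was called higher at E17.5 (0.53 ± 0.08, adjusted p = 0.00147, edgeR). Its female differences, given without a test, were 0.53 ± 0.10 for Ts65Dn and 0.48 ± 0.10 for Ts65Dn/Brwd1+/-, each against euploid. In males no upstream regulator, Rps6ka2 included, was higher than euploid by more than 0.27 in Ts65Dn or 0.24 in Ts65Dn/Brwd1+/-.

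Of 20 later activity-regulated genes 1 was called in the male and E17.5 comparisons, Nptx1, which encodes a secreted pentraxin and was higher in Ts65Dn at E17.5 (0.38 ± 0.09, adjusted p = 0.0789, edgeR), where 1.35% of all genes were called. At an unadjusted p under 0.05, 5 were higher and 1 lower in Ts65Dn vs. euploid males, against 8.91% of all genes. The counts were 0 and 1 in Ts65Dn/Brwd1+/- vs. Ts65Dn males (7.48%), 2 and 0 in Ts65Dn/Brwd1+/- vs. euploid males (10.1%) and 2 and 1 at E17.5 (12.1%). Of 10 stress and heat shock genes 0 were called in males or embryos by edgeR, with at most 2 at an unadjusted p under 0.05, and the chaperone gene Hspa1b in Ts65Dn/Brwd1+/- vs. euploid males had the smallest adjusted p (0.41 ± 0.12, adjusted p = 0.154). In Ts65Dn vs. euploid females the chaperone genes Hsph1 and Hsp90aa1 stood at 0.19 ± 0.05 and 0.25 ± 0.06. Of 9 glucocorticoid-responsive genes 0 were called by edgeR in males or embryos, with at most 1 at an unadjusted p under 0.05 in each comparison. Tsc22d3, induced by the glucocorticoid receptor, stood in females at -0.34 ± 0.12 for Ts65Dn against euploid and at 0.45 ± 0.12 for Ts65Dn/Brwd1+/- against Ts65Dn.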

How the data were processed

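The authors aligned single-end reads of hippocampus and E17.5 forebrain with HISAT2 (2.1.0 in their processing notes), counted them per gene with featureCounts 2.0.1 and deposited raw counts per gene (Entrez identifiers). The members, the other lists and the tests were chosen with earlier results of these data known. Counts were fitted with edgeR 4.0.16 (R 4.3.3) by the quasi-likelihood test with TMM normalisation and filterByExpr, in 1 fit per sex and 1 for embryos, with Benjamini-Hochberg adjustment over all tested genes and calls at 0.1, and from the female fit only fold changes and SEs are given. Levels are log2 CPM. Correlations used group-centred log2 CPM. Both kinds of test were tested on simulated data. Symbols and promoters came from RefSeq GRCm38.p6, which named 25275 of the 27179 rows. All 36 members are named, 12 of them with lowest, median and highest values, together with 1 to 3 genes of each other list by the smallest p per comparison and the 10 other genes most like Fos. Each library is 1 animal of the labels, so p-values measure the spread between these animals, and litters are not given. The number of reads limits precision little at these depths, apart from members near 0 log2 CPM. DESeq2 1.42.0, upper-quartile normalisation, no filter, a threshold of 0.05, 3 RUVr factors and leaving out libraries were alternatives.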

Additional observations from a re-analysis of the deposited data

Results flagged for a closer look

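In 7 of the 120 sets of libraries compared (13 members and 2 means over members in 8 groups), 1 library stood apart by Dixon's test, which chance does in about 1 in 20. In female euploid mice B125 was low for Arc (6.41 log2 CPM, next 7.49) and for the mean of all 36 members (3.99, next 4.48), and B17 was low for Jun (6.82, next 7.15). In female Ts65Dn mice B56 was low for Fos (3.28, next 3.58). In male Ts65Dn/Brwd1+/- mice B138, whose triplicated genes stood at the euploid level, was high for Fosb (4.92, next 3.52). In Ts65Dn embryos TS7 was high for Npas4 (3.61, next 2.98) and TS1 for the mean of 12 members (2.66, next 2.21). The causes were not tested.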

How the results depend on the processing

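The count of members called in male hippocampus was 0 under all alternatives run in the 3 comparisons, leaving out each library included, with 1 exception: DESeq2 with 3 RUVr factors called 1 member (Bdnf) in Ts65Dn/Brwd1+/- vs. euploid. That fit called 1322 genes over all genes. At E17.5 the count of 1 became 2 with DESeq2, 8 with 3 RUVr factors in DESeq2, 7 with the same factors in edgeR, and 0 within set A and 0 within set B of the title numbers alone, where fewer embryos were fitted, and it was 1 without any single embryo. With the replicate number of the embryo titles as a replicate block it was 1 (Jun, adjusted p = 0.087). Same-numbered embryos correlated at -0.13 to 0.23 and 1 of 7 Ts65Dn embryos correlated best with its own number, so the numbers were not taken to pair embryos. Members correlated with Fos numbered 22, 20 within males, 12 within females and 0 in the 15 embryonic libraries. The count was 16 without the 2 libraries farthest from the median of Fos and 20 without the libraries against their labels. Without 1 library at a time the female medians ran from -0.16 to -0.08 and from 0.17 to 0.25. With 3 RUVr factors they were -0.08 and 0.22, and with only the animals whose identifiers start with B -0.13 and 0.25. In males, where B138 gave the lowest median in both comparisons of Ts65Dn/Brwd1+/-, they ran from -0.02 to 0.06 for Ts65Dn vs. euploid, from -0.02 to 0.16 for Ts65Dn/Brwd1+/- against Ts65Dn and from 0.04 to 0.20 for Ts65Dn/Brwd1+/- against euploid. The split by title number, the fit without B125, the RUVr factors in females, the embryonic correlations and the correlations without libraries against their labels were chosen after seeing the data. Depth limits mainly Fosb, Ptgs2, Egr2 and Egr4 in embryos.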
